A study of Mus musculus with 8 samples.

Results

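The junctions described here were read from bait site 1, a Cas9 target in Dach1 on chromosome 14. The aligner placed their other side on another autosome, with low confidence. They were taken from the off-cut lists of the 4 site 1 libraries. Lines with the same chromosome, 5′ end and strand were collapsed to 1 junction, which kept its highest mapping quality. Junctions on chromosomes 1 to 19 other than 14 with a highest mapping quality under 30 were kept. This gave 2469 junctions of the 4163 interchromosomal ones (59.3%), and of 11310 distinct junctions in all 8 libraries of the series. The members were thus selected on their mapping quality, so quality values are given as a description only.

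The cells were Neuro-2a, a mouse neuroblastoma line, transfected with spCas9 and an sgRNA from PX458, along with a GFP reporter. The 10Q library had ataxin-7 with a normal polyglutamine tract, the 92Q library had ataxin-7 with an expanded tract, the positive control (called sgRNA only here) had the site 1 sgRNA without ataxin-7, and the non-targeting library had a non-targeting sgRNA and no ataxin-7. Harvest was at 48 h, the pool of 3 transfections was sorted for GFP, and each group was 1 library. No replicate error can therefore be given: intervals cover counting error only, and every test compares libraries, not conditions. The series' design text names only site 2 for the quality control, so the site 1 sgRNA-only library rests on its label. The off-cut lists held 4745 reads (10Q), 695 (92Q), 2848 (sgRNA only) and 216 (non-targeting).

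Translocation sequencing starts from a primer beside a planned break and reads the DNA that has become joined to it, called the prey. The 5′ end of the prey read marks the junction. A prey read from repeated DNA, such as satellites or transposon copies, aligns about equally well at several places, and the aligner then reports one of them with a low mapping quality. A read that differs at many bases from the reference also receives a low quality, even where it has only one possible place.

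The 2 oligonucleotides that set the bait are shown because the sgRNA set the cut in the 3 targeted libraries and the primer is where the reads of site 1 start. Capitals mark the last 8 bases of the primer, from which synthesis starts.
site 1 sgRNA: ggtagacatcagcgctgttg
site 1 bait primer: actaaaaagagcgccCCTCTTTC

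The poorly mapped class was the larger one in the 3 libraries with a targeting sgRNA. With 10Q it held 1275 of its 2114 interchromosomal junctions (60.3%, exact Clopper-Pearson 95% interval 58.2 to 62.4) and for sgRNA only 859 of 1414 (60.7%, 58.1 to 63.3). With 92Q it held 298 of 536 (55.6%, 51.3 to 59.9). In the non-targeting library it held 37 of 99 (37.4%, 27.9 to 47.7). The non-targeting library thus had the lowest share, from 99 junctions. The quality threshold itself defines this share, so differences in it were not tested. Just under the threshold, at a quality of 27, stood 3 junctions with 10Q, 0 with 92Q, 3 with sgRNA only and 0 in the non-targeting library. Just above it, at 30, stood 2, 3, 4 and 0.

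Most of these junctions lay far below the threshold. Qualities of 0 to 1 made up 57.4% with 10Q, 52.0% with 92Q, 50.2% with sgRNA only and 48.6% in the non-targeting library. Qualities of 2 to 9 made up 30.8%, 24.8%, 34.8% and 24.3% in the same order. The class from 10 to 19 was thin, with 31, 12, 21 and 0 junctions. The class from 20 to 29 held 9.33% with 10Q, 19.1% with 92Q, 12.6% with sgRNA only and 27.0% in the non-targeting library. The values thus fell into a large group near 0 and a smaller one in the twenties. With 10Q the single values 23 and 24 held 45 and 54 of the 119 junctions from 20 to 29. No grouping of the junctions themselves is read from this.

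The value itself carries more than its rank. Bowtie2, the aligner named in the submitters' processing notes, gives 8, 23 and 24 to reads for which it found no second alignment but many differences from the reference. The values 0 and 3 can arise with or without a second alignment, and the remaining values under 30 are given where a second alignment was found. These meanings are general knowledge of the tool, whose version is not given in the sources used here. By them, 391 junctions (15.8%) had no second alignment, 1155 (46.8%) had one, and 923 (37.4%) could be either.

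The libraries differed in this make-up. In the 10Q library 632 of 1275 members had a value that needs a second alignment (49.6%, 46.8 to 52.4), and in the sgRNA-only library 456 of 859 (53.1%, 49.7 to 56.5). In the 92Q library it was 65 of 298 (21.8%, 17.3 to 26.9), and in the non-targeting library 2 of 37 (5.41%, 0.661 to 18.2). The values 8, 23 and 24 ran the other way, at 13.3% with 10Q, 15.1% with sgRNA only, 26.5% with 92Q and 35.1% in the non-targeting library. The 10Q and sgRNA-only shares lay close to each other in both, and the 92Q shares lay further off. The kinds are read from the mapping quality that chose the members, so these shares were not tested. Junctions in pile-ups, defined below, are not independent of each other. Among members with a second alignment they made up 103 of 632 (10Q), 95 of 456 (sgRNA only) and 3 of 65 (92Q). No repeat annotation was used, so whether the sequence at these junctions is repeated was not tested.

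**Figure D1:**
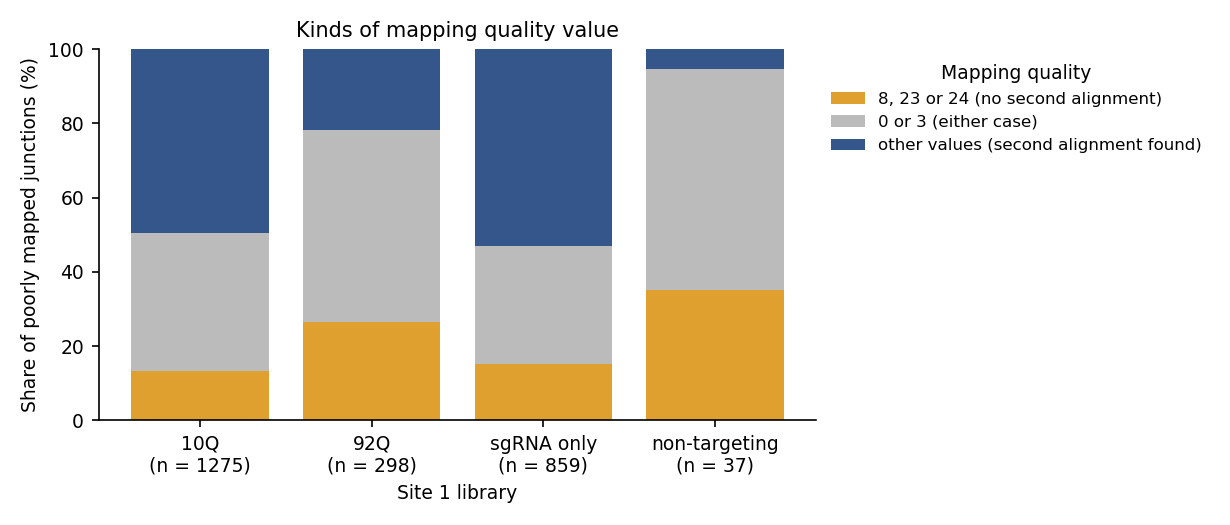
Stacked bars give, for each site 1 library, the share (percent) of its poorly mapped interchromosomal junctions by kind of mapping quality value. The kind given only with a second alignment fills 49.6% and 53.1% of the 10Q and sgRNA-only bars, 21.8% of the 92Q bar and 5.41% of the non-targeting bar.

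The stretch of reference that a read covered was a measure the threshold did not use directly, although gaps in an alignment lower the quality. The commonest span was 141 bp, and a different span means a gap in the alignment or a read of another length. Among well mapped junctions (quality 30 or more), 95.7% had a span of exactly 141 bp with 10Q, 92.4% with 92Q, 96.2% with sgRNA only and 87.1% in the non-targeting library. Among poorly mapped junctions the shares were 47.0%, 26.5%, 49.4% and 18.9%. Most of the others were shorter: 591 junctions with 10Q were under 141 bp and 85 were over it. Spans ran from 115 to 165 bp with 10Q and from 116 to 157 bp with 92Q, against 138 to 147 bp and 137 to 144 bp for well mapped junctions.

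The span also differed by kind of value. Gaps in an alignment lower the quality from which the kinds are read, so span and kind are not independent measures. Where a second alignment was found, 75.9% (10Q), 78.5% (92Q) and 77.0% (sgRNA only) of junctions spanned exactly 141 bp, and the median was 141 bp in every library. For values of 0 or 3 the share was 15.6%, 7.14% and 12.1%, with medians of 135, 134 and 135 bp. For 8, 23 and 24 it was 26.6%, 21.5% and 30.8%, with medians of 139, 139 and 140 bp. Among the 3 targeted libraries 92Q had the lowest share for these last kinds, and it also held the smallest share of junctions with a second alignment. These differences within a kind were not tested.

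**Figure D2:**
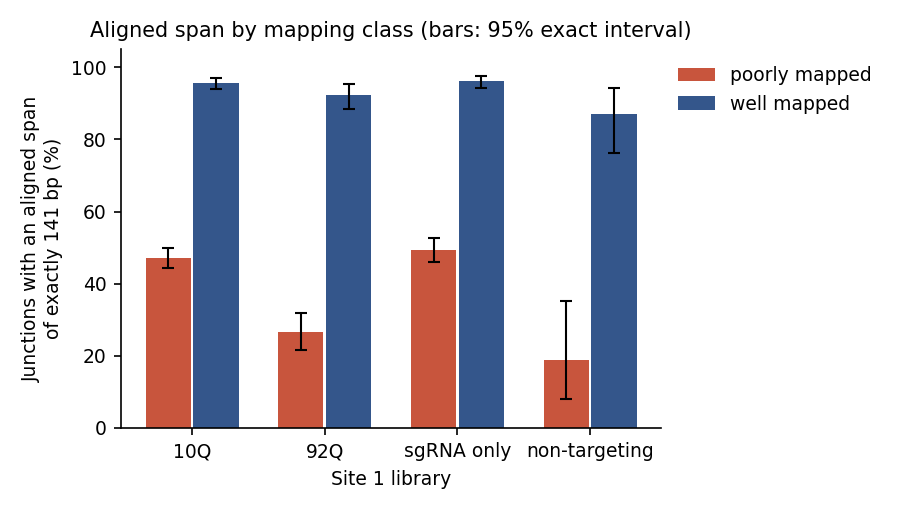
Bars give the share (percent) of distinct junctions with an aligned span of exactly 141 bp in each site 1 library, poorly mapped beside well mapped, with exact 95% intervals. Poorly mapped shares lie between 18.9% and 49.4%, and well mapped shares between 87.1% and 96.2%.

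Some of these junctions were well mapped in another library at the very same base and strand. This was the case for 17 of the 2469: 9 of 298 with 92Q, 4 of 859 with sgRNA only, 3 of 37 in the non-targeting library and 1 of 1275 with 10Q. None of the 17 had a value that requires a second alignment, and 14 had a span under 141 bp. On chromosome 2 at position 164047606, minus strand, the sgRNA-only library held a junction of quality 0 and span 129 bp. The 10Q library held the same base with 11 reads and the non-targeting library with 7, both at quality 42 and span 141 bp. On chromosome 15 at 38668896, minus strand, the 92Q library held quality 0 and span 120 bp, and the other 3 libraries quality 42 and span 141 bp. These 2 positions were picked after their values were seen.

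Sequence under 3 of the junctions could be read from RefSeq promoter windows (GRCm38.p6), which cover a short stretch around each gene's start. Only 5 of the 2469 junctions (0.203%) fell in such a window, against 18 of 1694 well mapped ones (1.06%). All 3 are shown because they are the members whose aligned stretch was wholly covered, read 5′ to 3′ from the junction as the prey. Capitals mark bases in a stretch of 20 that also occurs, on either strand, in the promoter window of another gene.
Cldn3, chr5:134985981-134986121, minus strand: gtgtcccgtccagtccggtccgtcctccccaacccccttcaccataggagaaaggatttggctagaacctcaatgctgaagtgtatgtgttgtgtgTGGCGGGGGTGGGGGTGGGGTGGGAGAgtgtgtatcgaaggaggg
Gm30544, chr7:37320953-37321080, plus strand: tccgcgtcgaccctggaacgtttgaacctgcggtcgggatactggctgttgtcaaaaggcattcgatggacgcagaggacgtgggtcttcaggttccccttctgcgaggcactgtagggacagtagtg
Gm30880, chr8:46284621-46284760, plus strand: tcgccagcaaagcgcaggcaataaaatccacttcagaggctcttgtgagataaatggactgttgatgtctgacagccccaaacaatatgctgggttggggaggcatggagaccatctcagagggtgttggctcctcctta

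These 3 stretches were mostly not shared with other promoters. Sequence outside promoter windows was not searched, so copies elsewhere in the genome could not be seen. Upstream of Cldn3, which encodes a claudin of tight junctions, 6 of 122 stretches of 20 bases (4.92%) recurred in the windows of 5 other genes, all in the guanine-rich part in capitals. In the windows of Gm30544 and Gm30880, both long non-coding RNA genes, 0 of 109 and 0 of 121 recurred. The 10 well mapped junctions with full cover had 0 recurring stretches each, and 4 of these 10 were 1 position at Shld1 seen in all 4 libraries. The 3 junctions had qualities of 24, 0 and 23 with 2 reads each; the first 2 were from the 10Q library and the third from the 92Q library. The last 8 bases of the bait primer, CCTCTTTC, searched on both strands, were in none of the 5 windows and in 2.74% of all 32851. With 5 of 2469 junctions in promoter windows, these sequences do not stand for the other junctions.

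Pile-ups, defined as 3 or more distinct junctions on 1 strand linked by gaps of at most 200 bp in 1 library, were found among the poorly mapped junctions and not among the well mapped ones. In the 10Q library 137 of 1275 poorly mapped junctions (10.7%, 9.10 to 12.6) lay in 19 pile-ups. Of its 839 well mapped ones 0 did, with an exact interval of 0 to 0.439% (exact Fisher test, 2-sided, BH-adjusted p = 1.63e-30). BH stands for Benjamini and Hochberg's method, applied over 22 tests. In the sgRNA-only library 116 of 859 (13.5%, 11.3 to 16.0) lay in 18 pile-ups. Of its 555 well mapped ones 0 did, with an exact interval of 0 to 0.662% (exact Fisher test, BH-adjusted p = 3.09e-26). The 92Q library had 1 pile-up of 3 junctions among 298 (1.01%) and 0 among 238, and the difference did not pass (exact Fisher test, BH-adjusted p = 0.437). The non-targeting library had 0 among 37 and 0 among 62. Junctions of a pile-up are not independent of each other, so these p-values are too small. With ends within 5 bp merged the shares were 2.99% (10Q) and 2.96% (sgRNA only), with a threshold of 2 they were 5.33% and 5.57%, and counted as reads 18.3% and 22.6%. The call stood in each of these.

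With the 4 libraries pooled, 44 loci had 3 or more different positions, and they held 330 junctions (13.4%) and 684 reads. Of the loci, 22 lay on the plus strand and 22 on the minus strand. They were narrow, from 6 to 159 bp wide with a median of 23 bp. No junction in them exceeded a quality of 18, none had a value of 8, 23 or 24, and no well mapped junction lay within 1 kb. A junction on the opposite strand lay within 1 kb of 5 loci. Reads of the site 2 libraries lay within 1 kb of 2 loci. How often a junction or read would lie within 1 kb of a locus by chance was not computed, so these counts have no background. Both the 10Q and the sgRNA-only library had junctions in 38 of the 44, the 92Q library in 6 and the non-targeting library in 0. Loci were called on the pooled junctions, of which 1275 were from 10Q, 859 from sgRNA only, 298 from 92Q and 37 from the non-targeting library. The larger libraries thus had more junctions with which to make up a locus, and these counts are not corrected for that.

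Of the 38 loci seen in both the 10Q and the sgRNA-only library, 9 had a position in more than 1 library and 29 had none. The largest locus, chr13:26615401-26615449 on the minus strand, lay 122 kb from the pseudogene Gm11353. It held 29 junctions from 120 reads with 10Q, 25 from 115 reads with sgRNA only, 3 from 3 reads with 92Q and 0 in the non-targeting library. Its commonest position, 26615422, had 31 reads with 10Q and 38 with sgRNA only. Of its 34 positions, 20 were found in more than 1 library.

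The second locus, chr18:72751601-72751684 on the plus strand, lay 26.6 kb from the long non-coding RNA gene Gm31819. It held 28 junctions from 84 reads with 10Q, 22 from 68 reads with sgRNA only, 2 from 2 reads with 92Q and 0 in the non-targeting library. The commonest position, 72751631, was again the same in both deep libraries, with 20 and 19 reads. These 2 loci together held 4.47% of all poorly mapped junctions with 10Q, 5.47% with sgRNA only and 1.68% with 92Q.

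The next 6 loci held 10 to 16 junctions each. On chromosome 10, chr10:128998844-128998863 on the minus strand lay 8.00 kb from Olfr9, an olfactory receptor gene of a large family. It had 9 junctions with 10Q, 7 with sgRNA only and 0 with 92Q, and its commonest position, 128998853, had 6 reads in each deep library. The locus chr1:168592347-168592385 on the plus strand, nearest to Gm34320, had 8, 7 and 1 junctions with 10Q, sgRNA only and 92Q, and 0 positions in common. The locus chr4:101483933-101483947 on the minus strand, 12.7 kb from Dnajc6, which encodes auxilin, a factor that uncoats clathrin vesicles, had 7, 7 and 1. The locus chr11:39457610-39457635 on the minus strand, nearest to 4930553C11Rik, had 4, 9 and 2. At the loci named so far, counts in the 10Q and sgRNA-only libraries were thus of one order, although their totals were 1275 and 859.

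The last 2 of these were seen in the 10Q and sgRNA-only libraries alone. The locus chr4:92164401-92164476 on the minus strand, 13.5 kb from Gm40203, had 10 and 3 junctions, and chr18:33281885-33281916 on the plus strand, inside the non-coding RNA gene Gm46640, had 5 and 5. The remaining loci among the 10 largest were chr1:32923860-32923892, nearest to the pseudogene Gm7114, with 3 and 4, and chr12:25466334-25466385, inside Gm36723, with 3 and 3. The 36 loci after the first 8 had 3 to 7 junctions each.

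**Figure D3:**
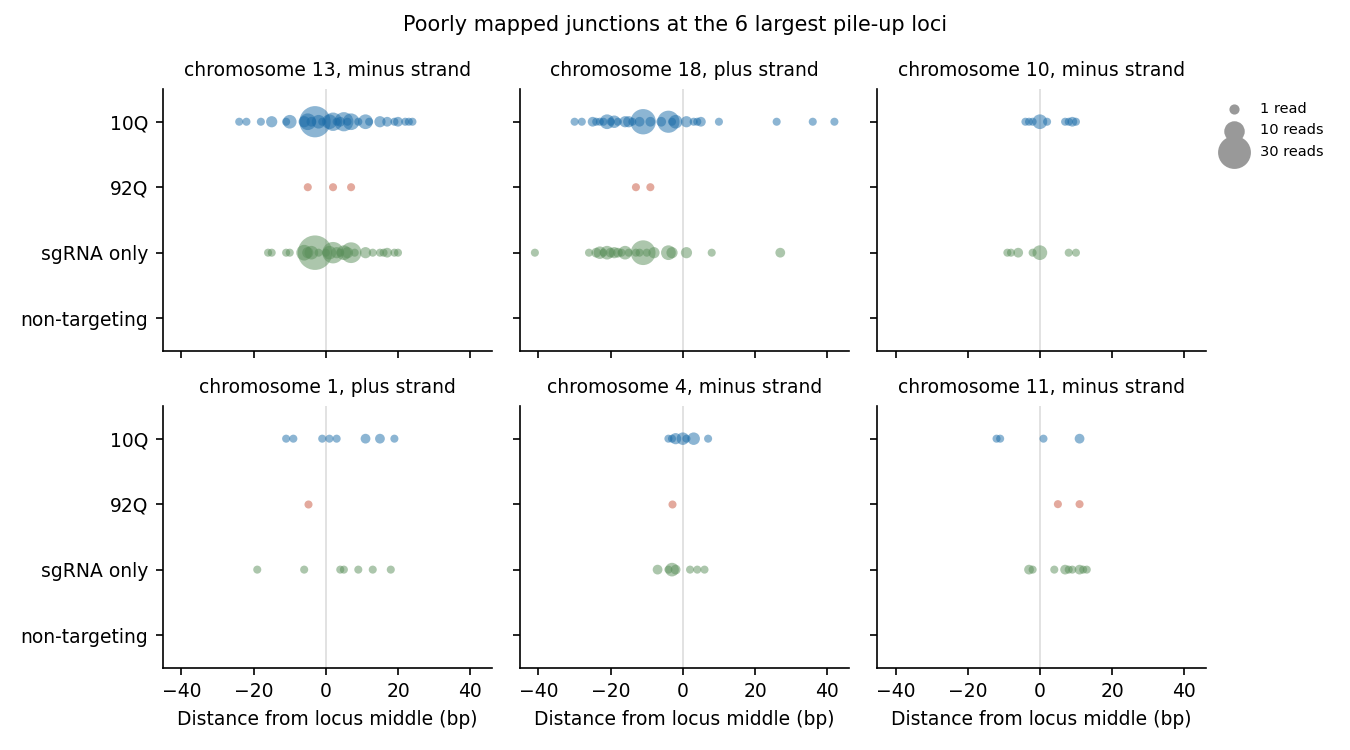
Each point is a distinct poorly mapped junction, placed by its distance in bp from the middle of the locus (x axis) and by library (rows), with an area that grows with its number of reads. At the chromosome 13 and chromosome 18 loci the largest points of the 10Q and sgRNA-only rows stand at the same distance, the 92Q row has 3 and 2 points, and the non-targeting row is empty in all 6 panels.

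Whether the pile-ups took a smaller part of the 92Q library was examined at the 18 loci called in the sgRNA-only library alone, a comparison chosen after seeing the data. There, 112 of 1275 poorly mapped junctions lay with 10Q (8.78%, 7.29 to 10.5) and 9 of 298 with 92Q (3.02%, 1.39 to 5.66). In the non-targeting library 0 of 37 did, with an exact interval of 0 to 9.49%. The difference of -5.76 points between 92Q and 10Q passed the test (exact Fisher test, BH-adjusted p = 0.000794). Junctions of a pile-up are not independent of each other, so this p-value is too small. A version with each locus counted once was not computed. Among junctions whose value requires a second alignment, the shares were 8 of 65 with 92Q (12.3%, 5.47 to 22.8) and 87 of 632 with 10Q (13.8%, 11.2 to 16.7). That difference of -1.46 points did not pass (exact Fisher test, BH-adjusted p = 0.851), and the interval of the 92Q share is wide.

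Exact sharing between the 10Q and sgRNA-only libraries was mostly sharing of pile-ups. Poorly mapped junctions occupied 73 positions that were present in more than 1 library, and 48 of them lay in the 44 loci. Of these 48, the largest locus, on chromosome 13, held 20 and the second, on chromosome 18, held 16. In the sgRNA-only library 57 of 859 poorly mapped junctions (6.64%, 5.06 to 8.51) were at a position of another library, against 20 of 555 well mapped ones (3.60%, 2.21 to 5.51; exact Fisher test, BH-adjusted p = 0.0439). With each pile-up counted once the order turned, to 2.50% against 3.60%, and the call ended (exact Fisher test, BH-adjusted p = 0.506). In the 10Q library the shares were 4.24% and 2.74% (exact Fisher test, BH-adjusted p = 0.152), and they turned in the same way, to 1.38% and 2.74% (exact Fisher test, BH-adjusted p = 0.0822). In the 92Q library they were 5.70% and 4.62% (exact Fisher test, BH-adjusted p = 0.852). In the non-targeting library 7 of 37 and 15 of 62 junctions were shared, 18.9% and 24.2% (exact Fisher test, BH-adjusted p = 0.852).

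The pairs of libraries differed in what they shared. The 10Q and sgRNA-only libraries had 47 positions in common with each other alone, 41 of them inside the 44 loci. The 92Q library took part in 19 shared positions, 7 of them in the loci, and the non-targeting library in 11, with 0 in the loci. Of the 73 positions, 1 was present in all 4 libraries and 10 in 3 libraries. One position, 27129675 on chromosome 5, minus strand, was poorly mapped in 3 libraries including the non-targeting one. It lay inside Dpp6 (26817357 to 27727500), which encodes an auxiliary subunit of neuronal potassium channels, and had quality 8 and span 129 bp with 3 reads (10Q), 3 (sgRNA only) and 1 (non-targeting). All libraries were read on 1 flow cell, per the read names, and the part of this in shared positions was not tested.

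The number of reads behind a junction is given as a description, because each junction kept the highest quality of its reads and more reads therefore favour the well mapped class. With 10Q 244 of 1275 (19.1%, 17.0 to 21.4) had 2 or more reads, against 357 of 839 well mapped ones (42.6%, 39.2 to 46.0). With sgRNA only the shares were 18.7% (16.2 to 21.5) and 36.0% (32.0 to 40.2). With 92Q they were 3.69% and 4.62%, at 1.04 and 1.18 reads per junction. Among well mapped junctions with 2 or more reads, 118 of 357 with 10Q also had a read under 30.

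In the 10Q and sgRNA-only libraries a smaller share of the poorly mapped junctions than of the well mapped ones lay inside gene bodies. Positions are those the aligner reported. A read that aligned about equally well at several places may come from another of them, so its gene is uncertain, here and below. With 10Q 494 of 1275 (38.7%, 36.1 to 41.5) lay in a gene of any kind, against 466 of 839 (55.5%, 52.1 to 58.9), a difference of -16.8 points (exact Fisher test, BH-adjusted p = 2.15e-13). With sgRNA only the shares were 39.2% (36.0 to 42.6) and 55.0% (50.7 to 59.1), a difference of -15.7 points (exact Fisher test, BH-adjusted p = 3.16e-08). With 92Q they were 53.7% (47.8 to 59.5) and 58.4% (51.9 to 64.7), a difference of -4.71 points that did not pass (exact Fisher test, BH-adjusted p = 0.462). In the non-targeting library they were 51.4% and 71.0%, from 37 and 62 junctions (exact Fisher test, BH-adjusted p = 0.123).

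**Figure D4:**
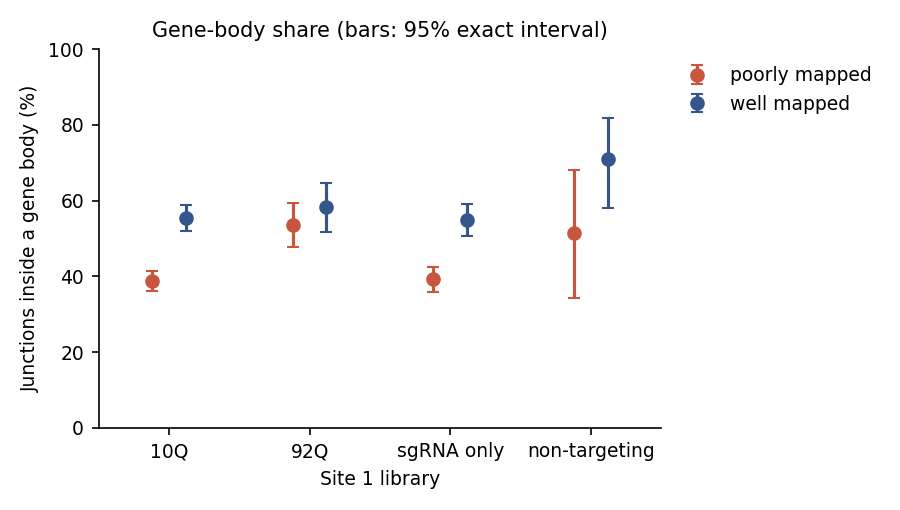
Points give the share (percent) of distinct junctions inside a RefSeq gene body in each site 1 library, poorly mapped beside well mapped, with exact 95% intervals. The 10Q and sgRNA-only libraries show 38.7% and 39.2% for poorly mapped junctions against 55.5% and 55.0%, and the 92Q library shows 53.7% against 58.4%.

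Poorly mapped junctions of the 92Q library lay in gene bodies more often than those of the 10Q library, by 14.9 points (exact Fisher test, BH-adjusted p = 1.04e-05). With a threshold of 2 the difference was 9.63 points and the call ended (exact Fisher test, BH-adjusted p = 0.0945). The 10Q and sgRNA-only libraries differed by -0.487 points (exact Fisher test, BH-adjusted p = 0.951). The gene-body share followed the kind of value, at 57.0% for 8, 23 and 24, 46.8% for 0 and 3, and 30.7% where a second alignment was found. Within each kind, a split chosen after seeing the data, the 92Q share was 70.9% against 55.0%, 50.6% against 46.2% and 40.0% against 28.8% with 10Q. None of these 3 differences passed the test (exact Fisher test, BH-adjusted p = 0.0555, 0.354 and 0.0977), although the 92Q share was the higher in each. The groups within a kind are smaller than the whole, down to 65 junctions. The kinds also rest on the mapping quality that chose the members.

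By gene class, large receptor families held few junctions of either mapping class. Olfactory receptor genes held 1 poorly mapped junction with 10Q, 0 with 92Q and 2 with sgRNA only, against 2, 0 and 0 well mapped ones. Vomeronasal receptor genes held 3, 0 and 2, against 1, 2 and 1. Zinc finger genes of the Zfp series held 13 (1.02%), 3 (1.01%) and 7 (0.815%), against 7 (0.834%), 1 (0.420%) and 2 (0.360%) well mapped ones. No junction lay in a microRNA gene. Protein-coding genes held 31.1%, 44.3% and 30.7% of the poorly mapped junctions, against 47.7%, 47.5% and 48.5% of the well mapped ones. The lower gene-body share with 10Q and sgRNA only was thus seen for protein-coding genes too.

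Poorly mapped junctions lay in 839 genes, and 19 of these held 4 or more. Cfap97d2, a protein-coding gene of 38.9 kb on chromosome 8 (13705750 to 13744599), held 15, with 8 from 10Q, 6 from sgRNA only and 1 from 92Q, and 0 well mapped ones. It lies inside the non-coding RNA gene Gm46032, to which the same junctions belong, and contained 2 of the 44 pooled loci. Chl1, a neural cell adhesion gene on chromosome 6 (103510584 to 103733038), held 7, of which 5 lay in 1 pooled locus. Kalrn, which encodes a synaptic guanine nucleotide exchange factor, held 6 on chromosome 16 (33969073 to 34573277), of which 4 lay in 1 pooled locus, beside 3 well mapped ones. Of the 44 loci, 16 were inside a gene body and 12 inside a protein-coding one. These genes were picked after their counts were seen.

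Over chromosomes, the pile-ups weighed most on 13 and 18. Chromosome 13 held 80 poorly mapped junctions with 10Q and 54 with sgRNA only, and with each pile-up counted once 52 and 30. Chromosome 18 held 70 and 51, and 39 and 26 with each pile-up counted once. In the 92Q library chromosome 8 held the most, 32 of 298 (10.7%), beside 12 of its 238 well mapped junctions. The 10Q library had 81 of 1275 there (6.35%), beside 58 of 839. Chromosome differences were not tested.

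The strands were used about equally in the targeted libraries. In the 10Q library the plus strand held 617 of 1275 (48.4%), in the 92Q library 143 of 298 (48.0%) and in the sgRNA-only library 427 of 859 (49.7%). The 92Q and 10Q libraries differed by -0.406 points (exact Fisher test, BH-adjusted p = 1). In the non-targeting library 11 of 37 lay on the plus strand (29.7%, 15.9 to 47.0), 20.0 points below sgRNA only (exact Fisher test, BH-adjusted p = 0.0457). With the threshold lowered to 10 the same difference no longer passed (exact Fisher test, BH-adjusted p = 0.0994).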

How the data were processed

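The deposited lists give 1 aligned read per line, and the authors' only measurement in them is the mapping quality, a score from 0 to 42. Bowtie2 and the builds mm9 and mm10 appear in the submitters' processing notes, with neither version nor role. Coordinates were read as mm10: the on-cut reads have their median at 98169439 for site 1, inside Dach1 in the GRCm38.p6 RefSeq table (97786846 to 98169765), and at 52181680 for site 2, inside Supt16 (52160419 to 52197239). Filters, duplicate removal and the on-cut rule: not given in the sources used here. Per the labels' protocols, 3 transfections were pooled per library and DNA was sheared to 750 bp. RefSeq gave 46710 genes, after 328 in the first 3 Mb of chromosomes were dropped. No genome was used, so no sequence is shown at pile-ups.

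2-sided Fisher's exact tests compared shares, Benjamini-Hochberg adjusted over 22 tests, or over 2 and 3 for those added. No comparison ran over many features. The pile-up code was tested on simulated data. Junctions, lists and tests were chosen with earlier results of these data known. Named loci were the 10 with most junctions and any present in 3 libraries, each with the gene holding its middle or the nearest gene. PCR reads carry no molecular identifiers, and nothing was scaled to sequenced reads. Python 3.11.15, pandas 2.3.3 and SciPy 1.17.1 were used.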

Additional observations from a re-analysis of the deposited data

Results flagged for a closer look

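Chromosome X was outside the junctions described. Its poorly mapped off-cut junctions lay in pile-ups too, 9 of 90 with 10Q and 7 of 78 with sgRNA only, against 0 of 9 with 92Q and 0 of 1 in the non-targeting library. The minus-strand pile-up at 57477348 to 57477402 with 10Q overlapped the sgRNA-only one at 57477380 to 57477399.

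The share of junctions at a position of another library, poorly minus well mapped, was 1.49 points with 10Q, 1.08 with 92Q and 3.03 with sgRNA only, and -5.27 in the non-targeting library. The sign differed between libraries, and this difference was not tested.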

How the results depend on the processing

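Of 148 recomputed values, 114 kept their direction and their side of the threshold, or stayed within their interval. Differences that fell to 0 or stayed there on the same side are counted among them. All 28 for the share in pile-ups kept their side. In the non-targeting library this share was 0 in both mapping classes throughout, so it had no direction. With 92Q it fell to 0 at a threshold of 2, with ends within 5 bp merged and with a minimum of 5 junctions. Its size moved from 10.7% to between 2.99% and 18.3% with 10Q and from 13.5% to between 2.96% and 22.6% with sgRNA only. Sharing between libraries, poorly minus well mapped, turned at a threshold of 2 to -0.282 points (10Q) and -0.106 (92Q), and was 0.341 and no longer called with sgRNA only. With ends within 5 bp merged it was -1.73 with 10Q, now called in the opposite direction, -0.568 with 92Q and -1.68 with sgRNA only. With pile-ups counted once it was -1.36 (10Q) and -1.11 (sgRNA only). With 10Q it became a call in the first direction counted as reads (7.66) and within 1 kb (12.4). In the non-targeting library it turned to 2.83 within 1 kb, and the share with 2 or more reads turned to 3.64 at a threshold of 10 and 12.9 at 2. Counted as reads, the gene-body difference was 1.95 with 92Q and -22.5, now called, in the non-targeting library. The 92Q minus 10Q gene-body difference was 9.63 and no longer called at a threshold of 2, and 15.9, 4.45 and 11.2 for values of 8, 23 and 24, of 0 and 3, and with a second alignment. The 10Q minus sgRNA-only one turned to 1.43 as reads and 0.325 for protein-coding genes. The plus-strand difference of 92Q and 10Q turned to 1.26 (threshold 10), 0.148 (threshold 2) and 0.915 (reads). That of sgRNA only and non-targeting was 20.0 and 25.1 at thresholds of 10 and 2, no longer called. The poorly mapped share was 58.0% (10Q) and 57.8% (sgRNA only) with pile-ups counted once, 54.3% and 58.0% as reads, and 53.2% (10Q), 42.7% (92Q), 51.6% (sgRNA only) and 27.3% (non-targeting) at a threshold of 10. The cause of these changes was not tested.

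The 37 junctions of the non-targeting library and the 298 of the 92Q library limit what can be told apart. No paired analysis was possible because each group was 1 library.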
